A study of Mus musculus with 11 samples.

Results

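Group 2 innate lymphoid cells (ILC2) of the mouse lung are described here from 235 cell barcodes among 69267 that passed a quality filter (0.339%), out of 81983 in all. The cells were selected on their own counts of UMIs (unique molecular identifiers, each standing for 1 captured transcript): at least 1 UMI of Gata3 and at least 1 of Il1rl1, at most 1 of Cd3d, Cd3e and Cd3g together, and 0 of Mcpt8, Foxp3 and Cd79a. Barcodes passed with a total between 1000 and 30000 UMIs, of which no more than 14% were mitochondrial. ILC2 are tissue-resident lymphocytes without antigen receptors that depend on the transcription factor GATA3. They respond to the epithelial alarmin IL-33, whose receptor ST2 is encoded by Il1rl1, and to IL-25 and TSLP. In the lung they are known as a source of the type 2 cytokines IL-5 and IL-13 and of the epithelial growth factor amphiregulin.

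Whole lungs were dissociated with enzymes, and single cells were profiled by droplet-based 3′ RNA sequencing in 11 libraries. The labels give 1 wild-type library (WT, +/+), 3 of p21 heterozygotes (p21Het, +/-), 5 of p21 mTert mice (p21mTert, +/mTert) and 2 of p21 mTertCD mice (p21mTertCD, +/mTertCD). p21 is the cell cycle inhibitor encoded by Cdkn1a, and mTert is mouse telomerase reverse transcriptase (Tert). The labels do not spell out mTertCD and do not say how many mice a library holds. Ages were 18 months, but the age labels of p21Het_1 and p21mTert_1 give 19 and 20 months while their titles give 18. Libraries are named by group and replicate, and WT_1, p21Het_1 and p21mTert_1 form an earlier deposit than the other 8; the design text says that samples were sequenced at different times.

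Libraries held 42038434 to 85988955 UMIs and 4721 to 8525 filtered barcodes. The median mitochondrial share of filtered barcodes was 6.30% to 6.58% in the earlier 3 libraries and 2.82% to 4.28% in the later 8. Of 68646 distinct filtered barcode sequences, 617 occurred in more than 1 library; none was an ILC2 in more than 1, and 2 ILC2 sequences passed the filter elsewhere. The surfactant gene Sftpc, a marker of alveolar type 2 cells, had a UMI in 90.2% of ILC2 and 88.8% of B cells.

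The ILC2 held a median of 5293 UMIs per cell (1264 to 29206) and 1699 genes (648 to 5804). Gata3 and Il1rl1 chose the cells, so their medians of 4 and 3 UMIs (highest 21 and 14) are a description. Just inside the limits, 33 cells had exactly 1 Gata3 UMI, 41 exactly 1 Il1rl1 UMI and 8 exactly 1 of each, and 16 carried 1 CD3 UMI. Just outside, 7 barcodes had a CD3 sum of 2 and 132 a sum of 3 or more, 460 had Il1rl1 without Gata3 and 1596 Gata3 without Il1rl1.

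Markers that the selection did not use set ILC2 apart from the pool of all other filtered barcodes. All but 6 of the 235 cells had at least 3 of 15 further ILC2 markers. These markers summed to 3655 to 7983 CPM (counts per 1000000 UMIs) across libraries, against 462 CPM in all other filtered barcodes. Against CD3-positive cells of the same gate (described below), 13 of these 15 markers were tested. There 4 were higher in ILC2, 1 was lower and 8 did not pass (median log2 fold change 1.43). Of all genes tested in that comparison, 4.69% were higher and 3.87% lower. Most of the markers thus did not set ILC2 apart from those cells at an adjusted p under 0.05. That comparison recovered 27.5% of 2-fold changes on simulated counts, so a marker that did not pass may still differ. Cd4 and Cd8a of T cells, Ms4a2, Tpsb2 and Mcpt4 of basophils and mast cells, and Il23r, Il22 and Il17a of ILC3 were at 0 in every ILC2. Of the whole lists, 6 of 8 T cell markers were found (608 CPM summed, 603 CPM in the other barcodes), 5 of 8 basophil or mast cell markers (46.1 and 56.3 CPM) and 2 of 5 ILC3 markers (7.24 and 29.4 CPM). Gamma delta T cell markers (4 of 5 found, 67.1 and 43.4 CPM) and regulatory T cell markers (2 of 2, 70.4 and 66.1 CPM) were higher in ILC2. Outside these lists, the T cell receptor gamma gene Tcrg-C4 was found in 111 ILC2 (140 CPM, 3.97 CPM in the other barcodes). The T cell receptor alpha constant gene Trac had 8 UMIs in 7 cells, while transcripts of the beta constant genes Trbc1 and Trbc2 were found in 140 and 159 cells.

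Markers of several other classes were high in 1 to 3 libraries each. NK or ILC1 markers summed to 297 CPM in p21mTert_2 and 783 CPM in p21mTert_3, and to 0 to 11.5 CPM in the other 9. Epithelial markers summed to 28069.6 CPM in p21mTert_1 and 33025 CPM in p21mTert_4, and to 843 to 3849 CPM elsewhere. Erythroid markers reached 16937 CPM in p21mTertCD_2, against 76.3 to 2593 CPM. Monocyte or macrophage markers were at 6939 CPM in p21mTertCD_2, 4207 CPM in p21mTert_1 and 3442 CPM in p21mTert_4, against 133 to 1784 CPM in the other 8. In p21mTert_1 neutrophil markers were at 4054 CPM (others 9.61 to 216) and endothelial markers at 1241 CPM (others 14.1 to 389). Fibroblast markers were at 353 CPM in p21mTert_3 (others 0 to 9.61). Basophil or mast cell markers were at 203 CPM in WT_1, 133 CPM in p21mTert_1 and 114 CPM in p21mTert_5, against 0 to 73.9 CPM. At least 3 markers of another class were found in 159 ILC2 barcodes, here called mixed. NK or ILC1 markers were not counted for this, so barcodes with NK markers alone were not called mixed. In p21Het_2, 45 of 49 cells were mixed, 33 by epithelial and 35 by erythroid markers. A different rule, with surfactant and haemoglobin RNA allowed for, called 27 barcodes mixed. It left out the epithelial and erythroid lists and added the NK or ILC1 markers. Barcodes with more than 1 of the epithelial genes Epcam, Krt8 and Cdh1 also counted as mixed. No doublet caller was run.

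ILC2 were 0.165% of filtered barcodes in WT_1 (9 cells; exact 95% Clopper-Pearson interval 0.0753% to 0.312%, counting error only). The p21Het libraries had 0.273%, 0.575% and 0.307% (17, 49 and 18 cells). The p21mTert libraries had 0.386%, 0.146%, 0.301%, 0.224% and 0.169% (24, 11, 19, 14 and 8 cells), and the p21mTertCD libraries 0.656% and 0.411% (43 and 23 cells). Both p21mTertCD libraries lay above all 5 p21mTert libraries, and p21Het overlapped both groups.

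The mean share was 0.245% ± 0.0986 (SD, n = 5) in p21mTert. For p21mTertCD it was 0.533% ± 0.173 (SD, n = 2), and for p21Het 0.385% ± 0.165 (SD, n = 3). The difference of p21mTert from p21mTertCD was -0.288 percentage points (2-sided exact permutation p = 0.0476, the smallest that 5 against 2 libraries allow; 0.143 after Benjamini-Hochberg adjustment over 3 contrasts), so it did not pass the adjusted threshold. The differences of p21mTert from p21Het (-0.140 points, exact permutation p = 0.179, adjusted 0.268) and of p21mTertCD from p21Het (0.148 points, exact permutation p = 0.4, adjusted 0.4, smallest possible 0.1) did not pass either. Single libraries moved each difference: p21mTert minus p21Het was -0.0450 points without p21Het_2, and p21mTert minus p21mTertCD was -0.166 points without p21mTertCD_1. The difference of p21mTertCD from p21Het was 0.0258 points without p21mTertCD_1, 0.271 without p21mTertCD_2, 0.0924 without p21Het_1 and 0.243 without p21Het_2. Without mixed barcodes p21mTert and p21mTertCD differed by -0.0462 points (exact permutation p = 0.333). CD3-positive cells of the same gate were also most numerous in p21Het_2 (32) and p21mTertCD_1 (53), the libraries with the highest ILC2 shares. Fewer ILC2 in the lung and a lower yield of them at dissociation cannot be told apart.

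**Figure D1:**
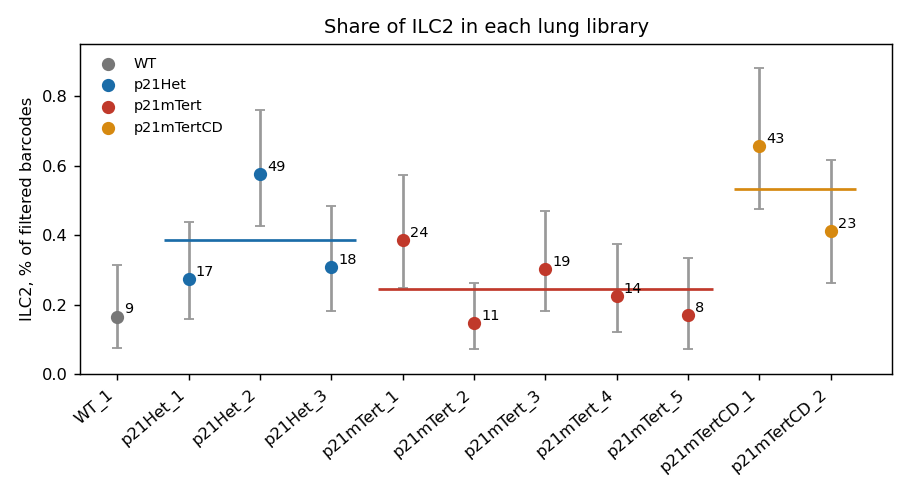
Share of ILC2 among filtered barcodes (percent, vertical axis) in each of the 11 libraries (horizontal axis), coloured by genotype, with the number of ILC2 beside each point. Grey bars are exact 95% intervals for counting error and coloured lines are group means; the p21mTertCD libraries (0.656% and 0.411%) sit above all p21mTert libraries (0.146% to 0.386%).

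Genes that set ILC2 apart from all other filtered barcodes were ranked by the mean over libraries of log2((CPM + 10)/(CPM in the others + 10)), among genes found in at least 25% of ILC2, with the genes of the gate left out, as a description without a test. Calca, which encodes the neuropeptide CGRP and calcitonin, led with a mean log2 ratio of 6.18: 887 CPM in ILC2 and 2.82 CPM in the others. It was followed by Gm20186, Ccdc184, Slc7a8, Il2ra, Rnf128, Rora, Arg1, of which Il2ra encodes an interleukin 2 receptor chain, Slc7a8 an amino acid transporter, Rora a nuclear receptor and Arg1 arginase 1. Zcchc10, Tcrg-C4, Nrgn, Hs3st1, Tnfsf11, Cxcr6, Dach2, Hlf, Klrg1, Inpp4b, Tnfrsf18 and Lztfl1 completed the first 20. All 20 were above the other barcodes in 11 of 11 libraries. Gm20186 was more abundant in basophils (1912 CPM) than in ILC2 (904 CPM), and Klrg1, an inhibitory receptor, in NK cells (166 CPM) than in ILC2 (122 CPM). Tnfrsf18 (GITR) was at 249 CPM in CD3-positive cells of the same gate, described below, and 259 CPM in ILC2.

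ILC2 were set against 3 other classes from the same libraries. CD3-positive Gata3/Il1rl1 cells met the same gate but had at least 2 CD3 UMIs (139 cells), NK cells had Ncr1 and Klrb1c (1002 cells) and basophils had Mcpt8 and Ms4a2 (170 cells). Their median depths were 6067, 5062 and 5679 UMIs. UMIs were summed per library and class and tested with edgeR's quasi-likelihood test with the library as a block; a gene was called at an adjusted p under 0.05, and genes of the gates were left out of the counts. Against the CD3-positive cells 261 of 3047 genes were called (8.57%; 143 higher and 118 lower in ILC2), in 4 libraries (p21Het_2, p21mTert_1, p21mTert_4 and p21mTertCD_1). This count depended on the setting: it was 84 without mixed barcodes (41 higher and 43 lower). With every cell thinned to 1000 UMIs it was 74 (35 higher and 39 lower). In every class comparison given without mixed barcodes, here and below, they were taken out of ILC2 alone. The other classes kept theirs, so the exclusion was not symmetric. Against NK cells 1911 of 6190 genes were called (30.9%; 975 higher and 936 lower in ILC2), in 9 libraries. Against basophils 1006 of 2015 genes were called (49.9%; 479 higher and 527 lower in ILC2), in 5 libraries (p21Het_1, p21mTert_1, p21mTert_2, p21mTert_4 and p21mTertCD_2). WT_1, with 9 ILC2, entered none of these fits. Among the libraries set against the CD3-positive cells, p21mTert_1 and p21mTert_4 had the highest epithelial marker sums in ILC2 (28069.6 and 33025 CPM). In p21Het_2, also among them, 45 of 49 ILC2 were mixed. The median log2 fold change over all tested genes was 0.01, -0.01 and 0.04 in the 3 comparisons. In the same order, 27.5%, 59% and 50.5% of simulated 2-fold changes were recovered, and 87%, 88.5% and 90% of 4-fold changes. A difference that did not pass is therefore not read as likeness between the classes. The gene lists below are set beside these shares as a description, since the lists were chosen with earlier results of these data known. A gene at 0 UMIs in a class could enter the test only through the other class, which fixed its direction. Values after ± of a log2 fold change are standard errors, derived from the fold change and the F statistic of the test.

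Among transcription factors, Rora, which ILC2 development requires, was found in 201 of the 235 cells. It was at 1399 CPM in WT_1, 1029.6, 822 and 1187 CPM in p21Het, 1241, 1286, 836, 923 and 1277 CPM in p21mTert, and 1173 and 1040.5 CPM in p21mTertCD. The 3 genotypes with replicates overlapped. Rora was higher in ILC2 than in the CD3-positive cells (log2 fold change 1.69 ± 0.29, adjusted p = 0.00402, higher in 4 of 4 libraries), NK cells (4.09 ± 0.13, adjusted p = 3.86e-12, 9 of 9) and basophils (4.43 ± 0.27, adjusted p = 1.04e-06, 5 of 5). Bcl11b, a factor of T cell and ILC2 development, was higher than in NK cells (4.28 ± 0.25, adjusted p = 9.8e-10), and its difference from the CD3-positive cells did not pass (-0.32 ± 0.24, adjusted p = 0.547). Id2, which restrains E proteins in all innate lymphoid cells, was lower than in NK cells (-0.80 ± 0.12, adjusted p = 5.77e-05), with no call against the CD3-positive cells (0.17 ± 0.28, adjusted p = 0.832). Tox and Maf were lower than in the CD3-positive cells (-1.54 and -1.31, adjusted p = 0.0102 and 0.0234); the call for Tox was lost in DESeq2, and that for Maf in 6 of 10 alternatives, among them without mixed barcodes and without p21Het_2, p21mTert_1 or p21mTertCD_1. Of the factors, 1 of 11 tested were higher and 2 lower in ILC2 against the CD3-positive cells, 10 of 14 higher and 3 lower against NK cells, and 7 of 9 higher and 1 lower against basophils. Their median log2 fold changes were -0.34, 0.65 and 2.96. Without mixed barcodes, 5 of the 13 calls against NK cells were kept (10 could be fitted) and 4 of the 8 against basophils (5 fitted). After thinning to 1000 UMIs these were 3 (5 fitted) and 2 (2 fitted). With surfactant and haemoglobin RNA allowed for, 12 of 13 and 8 of 8 were kept.

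Among receptors, Il7r, for the survival cytokine IL-7, was found in 225 ILC2, at 506 to 1462 CPM across libraries. It was higher than in NK cells (3.78 ± 0.22, adjusted p = 9.34e-10) and basophils (2.79 ± 0.26, adjusted p = 1.43e-05), and its difference from the CD3-positive cells did not pass (0.15 ± 0.21, adjusted p = 0.801). Il17rb, the IL-25 receptor, was found in 79 ILC2 and had 0 UMIs in NK cells of the 9 libraries, so that ILC2 were at least 141-fold higher (against 3 counts over those libraries). Il2ra, of the high-affinity IL-2 receptor, was found in 179 ILC2 at 229.5 to 494 CPM, while Il2rb, the chain that NK cells use, was lower than in the CD3-positive cells and NK cells (-2.56 and -3.94, adjusted p = 0.00152 and 3.18e-08). Against the CD3-positive cells neither Il17rb (1.45 ± 0.48, adjusted p = 0.0918) nor Il2ra (0.77 ± 0.27, adjusted p = 0.119) passed. Il18r1, for IL-18, was lower in ILC2 than in the CD3-positive cells (-2.21 ± 0.30, adjusted p = 0.000991), NK cells (-2.69 ± 0.30, adjusted p = 2.21e-06) and basophils (-3.81 ± 0.37, adjusted p = 1.78e-05), and had a UMI in 20 ILC2. Crlf2, of the TSLP receptor, was lower than in basophils (-1.04 ± 0.32, adjusted p = 0.0207), a call lost in the later deposit alone and without p21Het_1 or p21mTert_2. Of the receptors, 0 of 13 tested were higher and 3 lower in ILC2 against the CD3-positive cells, 4 of 14 higher and 6 lower against NK cells, and 5 of 9 higher and 4 lower against basophils. The list medians were -0.28, -0.03 and 0.82.

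Most secreted products were found in a minority of the 235 cells, and Calca in 147. A UMI of Arg1 was found in 92 cells, of Tnfsf11 (RANKL) in 80, of Areg (amphiregulin) in 78, of Csf2 (GM-CSF) in 49, of Lif in 44, of Il4 in 37, of Ccl1 in 36, of Il13 in 32, of Il2 in 31 and of Il5 in 19. Il9 and Penk had 0 UMIs. With every cell thinned to 1000 UMIs, Calca was found in 40.4% of ILC2, 2.88% of the CD3-positive cells and 0% of B cells, which should lack it (0 of 13770 cells, which allows up to 0.0218% of cells with a UMI at this thinned depth); Areg in 15.7%, 10.1% and 0.182%; Il13 in 7.66%, 0.719% and 0.0145%. Without thinning the ILC2 shares were 62.6%, 33.2% and 13.6%, and those of B cells 0.0726%, 0.683% and 0.0363%, at median depths of 5293 and 4276 UMIs.

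Sequences upstream of Calca and of the type 2 cytokine genes are shown because these products are compared with other classes below. GATA3 was also used to choose the cells. Il13 (GRCm38 chromosome 11, 53631324 to 53634702), Il4 (53602982 to 53618669) and Il5 (53720794 to 53725106) are neighbours, and Calca lies on chromosome 7 (114631478 to 114636357). Each line gives the 250 bases before the RefSeq start (GRCm38.p6), 5′ to 3′ on the gene's strand, with GATAA, or TTATC where it lies on the other strand, in capitals. The windows are chr11:53634703-53634952 (minus strand), chr11:53618666-53618915 (minus), chr11:53720544-53720793 (plus) and chr7:114636358-114636607 (minus).
Il13: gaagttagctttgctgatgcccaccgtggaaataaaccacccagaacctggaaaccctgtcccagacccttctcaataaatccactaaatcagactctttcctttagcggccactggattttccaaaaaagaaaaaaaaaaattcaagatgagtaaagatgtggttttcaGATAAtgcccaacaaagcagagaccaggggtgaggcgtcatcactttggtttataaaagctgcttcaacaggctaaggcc
Il4: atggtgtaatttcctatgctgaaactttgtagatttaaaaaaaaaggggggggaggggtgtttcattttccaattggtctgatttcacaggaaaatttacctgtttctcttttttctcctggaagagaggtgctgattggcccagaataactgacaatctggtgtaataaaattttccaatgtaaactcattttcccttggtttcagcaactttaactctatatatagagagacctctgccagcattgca
Il5: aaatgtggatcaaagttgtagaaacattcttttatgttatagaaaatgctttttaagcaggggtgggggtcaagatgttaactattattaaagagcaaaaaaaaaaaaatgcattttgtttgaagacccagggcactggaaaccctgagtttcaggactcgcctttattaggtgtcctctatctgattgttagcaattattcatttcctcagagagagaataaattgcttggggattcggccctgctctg
Calca: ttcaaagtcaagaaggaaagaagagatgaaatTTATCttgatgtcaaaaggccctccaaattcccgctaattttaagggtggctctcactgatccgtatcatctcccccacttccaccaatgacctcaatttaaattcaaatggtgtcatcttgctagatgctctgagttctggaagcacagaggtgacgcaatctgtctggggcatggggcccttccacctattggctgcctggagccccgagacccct
The Il13 window held 1 match on the gene's strand, the Calca window 1 on the other strand, and the Il4 and Il5 windows 0. Of 32851 such windows, 22.6% held at least 1 match, so these are a description of the letters.

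Calca was at 763 CPM in WT_1, 585, 699 and 1016 CPM in p21Het, 1108, 862, 1006, 779 and 3563 CPM in p21mTert, and 567 and 751 CPM in p21mTertCD. p21mTert_5 stood above the rest with 187 UMIs in 7 of its 8 cells. All 5 p21mTert libraries lay above both p21mTertCD libraries, and p21Het overlapped both groups. Calca was not called in any genotype contrast (below). Calca was higher in ILC2 than in the CD3-positive cells (4.04 ± 0.30, adjusted p = 8.96e-06, 4 of 4 libraries), NK cells (9.15 ± 0.35, adjusted p = 1.52e-11, 9 of 9) and basophils (7.89 ± 0.43, adjusted p = 5.64e-07, 5 of 5).

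Areg was at 76.3 CPM in WT_1, 191, 505 and 57.0 CPM in p21Het, 299, 141, 318, 231 and 191 CPM in p21mTert, and 314 and 172 CPM in p21mTertCD. The p21Het libraries alone spanned the whole range. It was higher than in NK cells (6.98 ± 0.39, adjusted p = 6.59e-10) and basophils (6.25 ± 0.58, adjusted p = 1.43e-05). Against the CD3-positive cells the difference was 1.44 ± 0.33, adjusted p = 0.0178, a call lost without p21Het_2, without p21mTertCD_1, without mixed barcodes, after thinning and in DESeq2 (adjusted p up to 0.111 over the alternatives).

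Il13 was at 0 CPM in WT_1, 0, 123 and 446 CPM in p21Het, 113, 184, 47.1, 249.97 and 438 CPM in p21mTert, and 19.2 and 462 CPM in p21mTertCD. The 0 values come from 9 and 17 cells and allow up to 3 counts each. Libraries of 1 genotype differed as widely as libraries of different genotypes, and 1 cell held 18.1% of the 254 UMIs. NK cells had 0 UMIs of Il13, so that ILC2 were at least 256-fold higher. Its differences from the CD3-positive cells (1.63 ± 0.56, adjusted p = 0.107) and from basophils (-0.94 ± 0.57, adjusted p = 0.193) did not pass. Il4 divided the 2 classes: its mean was 30.8 CPM in ILC2 and 929 CPM in basophils (-4.82 ± 0.41, adjusted p = 8.2e-06). Il5 had 37 UMIs in ILC2, and ILC2 were at least 39.9-fold above NK cells, which had 0.

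Arg1 was at 432 CPM in WT_1, 203, 136 and 256 CPM in p21Het, 59.7, 198, 58.9, 308 and 191 CPM in p21mTert, and 30.7 and 277 CPM in p21mTertCD. The 3 genotypes with replicates overlapped. It was higher than in NK cells (6.29 ± 0.34, adjusted p = 4.4e-10) and basophils (5.74 ± 0.61, adjusted p = 3.11e-05), and its difference from the CD3-positive cells did not pass (1.43 ± 0.59, adjusted p = 0.194). Tnfsf11 had 0 UMIs in NK cells and basophils, so that ILC2 were at least 172-fold and 41.1-fold higher; against the CD3-positive cells it did not pass (0.34 ± 0.60, adjusted p = 0.842). The myeloid growth factor Csf1 and Il6 were lower in ILC2 than in basophils (-6.44 and -7.17, adjusted p = 8.15e-08 and 1.94e-06). Of the secreted products, 2 of 10 tested were higher and 0 lower in ILC2 against the CD3-positive cells, 13 of 15 higher and 2 lower against NK cells, and 6 of 10 higher and 3 lower against basophils. Median log2 fold changes of the tested products were 0.88, 6.47 and 4.63; with genes at 0 in the other class set to their bound, the last 2 were 6.29 and 4.45.

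**Figure D2:**
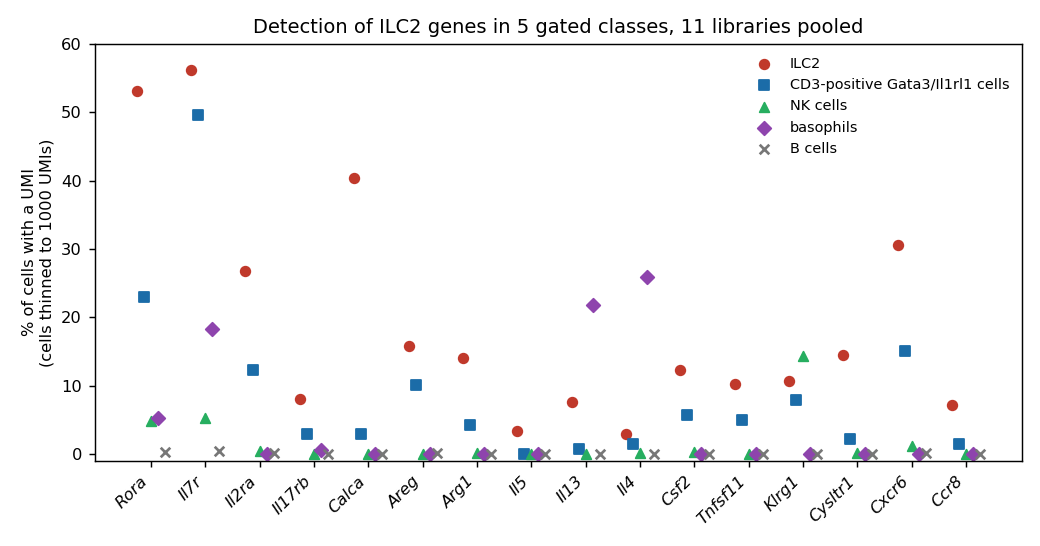
Percentage of cells with at least 1 UMI after thinning each cell to 1000 UMIs (vertical axis) for 16 ILC2 genes (horizontal axis) in 5 gated classes, with the 11 libraries pooled. In ILC2, Il7r (56.2%), Rora (53.2%) and Calca (40.4%) were frequent, while Il4 and Il13 were found in more basophils (25.9% and 21.8%).

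Products found in the same cell are given as counts. Of 32 cells with Il13, 6 also had Il5, 16 Areg and 18 Arg1. Arg1 was in 56.2% of the cells with Il13 and in 36.5% of the cells without. Cells with Il13 were deeper, with a median of 6113 against 5248 UMIs, and the part of depth in this was not tested.

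Among neuropeptide and lipid mediator genes, Cysltr1, a receptor for cysteinyl leukotrienes, was found in 103 ILC2, and Ptgir, the prostacyclin receptor, in 88. Cysltr1 was higher than in the CD3-positive cells (1.96 ± 0.45, adjusted p = 0.0182), NK cells (7.69 ± 0.38, adjusted p = 1.57e-10) and basophils (5.07 ± 0.56, adjusted p = 4.23e-05). Ptgir was higher than in the CD3-positive cells (1.93 ± 0.37, adjusted p = 0.00702) and NK cells (4.93 ± 0.52, adjusted p = 1.32e-06), and its difference from basophils did not pass (0.68 ± 0.49, adjusted p = 0.268). Both calls against the CD3-positive cells were lost without p21mTertCD_1 and in DESeq2. Ramp1, which forms the CGRP receptor with Calcrl, was higher than in NK cells and basophils (3.42 and 3.99, adjusted p = 3.72e-09 and 0.000709); against the CD3-positive cells it did not pass (1.20 ± 0.40, adjusted p = 0.0949). Nmur1, the neuromedin U receptor, had 8 UMIs, and Ptgdr2 (CRTH2) and Vipr1 had 0. Of this list, 2 of 8 tested were higher and 0 lower in ILC2 against the CD3-positive cells, 8 of 11 higher and 0 lower against NK cells, and 4 of 7 higher and 2 lower against basophils. In the same order, the median log2 fold changes were 1.02, 3.42 and 3.99.

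Among co-stimulation and checkpoint genes, Kit, the stem cell factor receptor, was higher than in the CD3-positive cells (3.66 ± 0.50, adjusted p = 0.00101, 4 of 4 libraries). Tnfrsf4 (OX40; -8.07 ± 0.46, adjusted p = 1.14e-06), Ctla4 (-4.73 ± 0.65, adjusted p = 0.00101), Tnfrsf9 (-3.51), Thy1 (-1.31) and Cd48 (-1.56) were lower. The call for Tnfrsf9 was lost without p21Het_2, that for Thy1 without mixed barcodes, and that for Cd48 without p21mTert_1, in the later deposit alone and in DESeq2. Icos and Klrg1, both common ILC2 surface markers, were found in 100 and 95 cells, and their differences from the CD3-positive cells did not pass (-0.77 and 0.46, adjusted p = 0.217 and 0.741). Of this list, 1 of 12 tested were higher and 5 lower in ILC2 against the CD3-positive cells, 7 of 12 higher and 3 lower against NK cells, and 5 of 6 higher and 1 lower against basophils. As medians, the log2 fold changes were -1.04, 1.71 and 4.91 (4.49 for the last with genes at 0 set to their bound).

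Among trafficking genes, Cxcr6, a chemokine receptor of tissue-resident lymphocytes, was at 356 CPM in WT_1, 496, 351 and 759.7 CPM in p21Het, 272, 226, 300.1, 298 and 591 CPM in p21mTert, and 318 and 671 CPM in p21mTertCD. The 3 genotypes with replicates overlapped, p21mTert with the others through p21mTert_5 alone, and Cxcr6 was not called in any genotype contrast (below). Cxcr6 was higher than in NK cells (4.28 ± 0.20, adjusted p = 8.96e-11) and basophils (7.13 ± 0.46, adjusted p = 1.54e-06), and its difference from the CD3-positive cells did not pass (0.74 ± 0.25, adjusted p = 0.109, 3 of 4 libraries). The integrin chain Itgb1 was lower than in all 3 classes (-1.75, -2.22 and -2.06, adjusted p = 0.00122, 3.51e-08 and 0.000172). Of this list, 0 of 12 tested were higher and 3 lower in ILC2 against the CD3-positive cells, 5 of 12 higher and 4 lower against NK cells, and 3 of 11 higher and 6 lower against basophils. The medians of their log2 fold changes were -0.71, 0.22 and -0.92.

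Immediate early and stress genes, which also respond to tissue dissociation, were mostly higher in ILC2 than in the lymphoid classes and lower than in basophils. Jun and Fosb, subunits of AP-1, were higher than in the CD3-positive cells (2.46 ± 0.31, adjusted p = 0.000597; 1.95 ± 0.22, adjusted p = 0.000293). Jun was not called without mixed barcodes (0.36, adjusted p = 0.752) or after thinning (1.10). Nfkbia, the inhibitor of NF-kappa B, was higher than in NK cells (2.85 ± 0.22, adjusted p = 3.77e-08) and lower than in basophils (-2.07 ± 0.20, adjusted p = 1.92e-05). Of this list, 10 of 14 tested were higher and 0 lower in ILC2 against the CD3-positive cells, 13 of 15 higher and 0 lower against NK cells, and 0 of 14 higher and 11 lower against basophils. On the log2 scale the medians were 1.09, 2.15 and -1.32. Against the CD3-positive cells the sign of Fos and Egr1 turned without mixed barcodes (-0.18 and -0.90), and the part of dissociation was not tested. Of the genes called in that comparison, 5 of 10 kept the call without mixed barcodes and 5 of 10 after thinning; against NK cells 11 of 13 and 13 of 13 kept it, and against basophils 9 of 11 and 11 of 11. Lyz2, lysozyme of myeloid and alveolar type 2 cells, was also higher in ILC2 than in the CD3-positive cells, at 2540.2 against 329.7 CPM (2.72 ± 0.54, adjusted p = 0.00861, 4 of 4 libraries). Sftpc averaged 13526 against 763 CPM there and did not pass (adjusted p = 0.249). The part of these markers was not tested.

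Cytotoxicity genes were lower than in NK cells in 7 of 7 tested. Gzma, granzyme A, averaged 9969.6 CPM in NK cells and 48.5 CPM in ILC2, where 4 cells held it. Proliferation genes were lower than in NK cells in 4 of 9 tested, lower than in basophils in 1 of 2, and not called in 4 tested against the CD3-positive cells. Mki67, of cycling cells, was found in 5 ILC2, 1 of which held 86.5% of its 52 UMIs. The chemokine Ccl5 was at 2101 CPM in p21mTert_3, the library with the highest NK marker sum, against 9.50 to 438 CPM in the others, and 3 cells held 72.2% of all its UMIs.

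The largest differences by the naming rule (non-overlapping libraries, at least 20 CPM in the higher class) against the CD3-positive cells were Stxbp6 (at least 18.0-fold), the epithelial genes Krt8 and Cldn3, Calca and Rab27b in the higher direction. In the lower direction were Cd4, Gm8369, Cd5 and Cd6, with 0 UMIs in ILC2 of these 4 libraries (at least 77.8-fold, 52.9-fold, 50.2-fold and 35.2-fold lower), and Tnfrsf4. Krt8 came from 20 ILC2, 1 of which held 42.6% of its UMIs; the part of the epithelial markers given above was not tested. Against NK cells they were Calca, Tnfsf11, Ramp3 (at least 184-fold), Dach2 (at least 132-fold) and Il17rb, and in the lower direction Klri2 (at least 104-fold), Gzma, Klra4, Cma1 and S1pr5 (at least 37.7-fold). Against basophils they were Rnf128, Gimap3, Il2ra, Mdfic and Ccdc184, at least 84.0-fold, 88.5-fold, 83.5-fold, 62.3-fold and 42.9-fold higher. The chemokine genes Ccl4 (-13.63 ± 0.34, adjusted p = 1.69e-09) and Ccl3 (-12.53 ± 0.36, adjusted p = 3.66e-09) and Cyp11a1, Acod1 and Cd200r3 (at least 316-fold, 412-fold and 105-fold) were lower than in basophils.

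**Figure D3:**
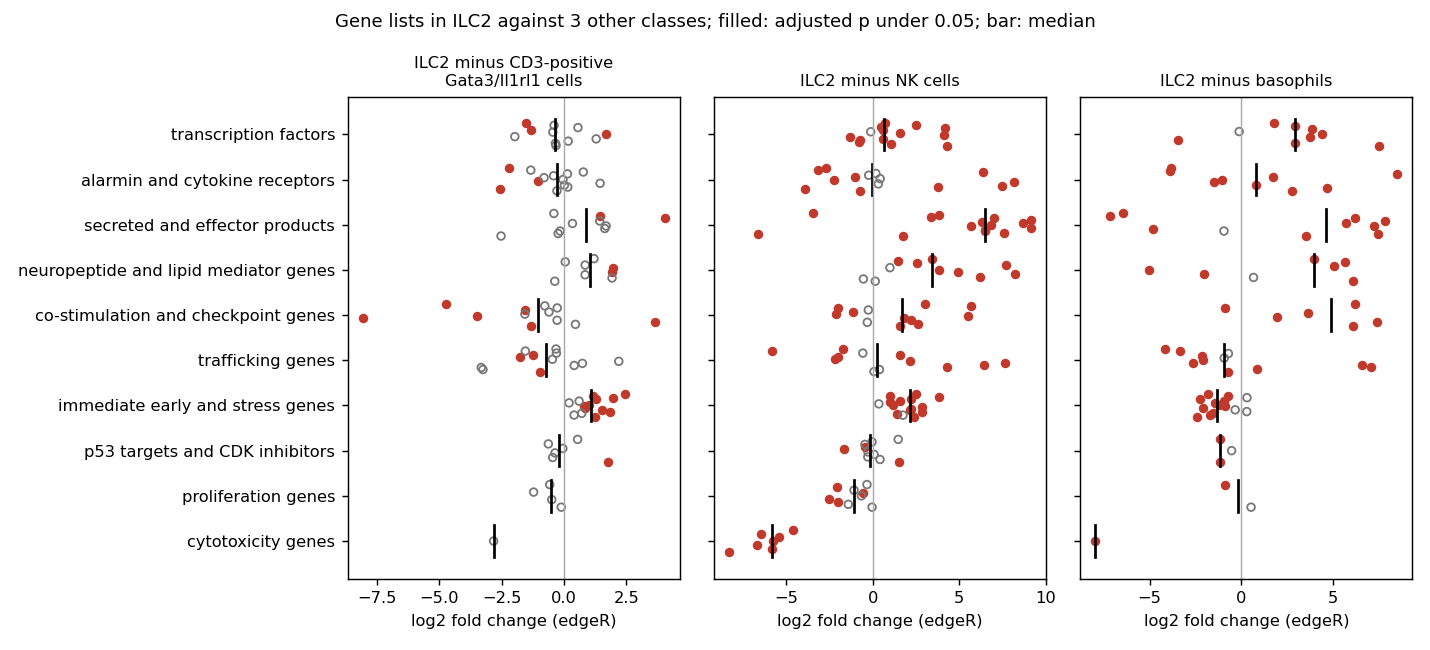
log2 fold change of ILC2 against CD3-positive Gata3/Il1rl1 cells, NK cells and basophils (horizontal axes) for the tested genes of 10 lists (rows). Filled points have an adjusted p under 0.05 and black bars are medians; the immediate early and stress genes have medians right of 0 in the first panels (1.09 and 2.15) and left of 0 against basophils (-1.32).

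Genotype was tested within ILC2 over the 9 libraries with at least 10 of them, which leaves out p21mTert_5 and WT_1. By edgeR's quasi-likelihood test, 0 of 2866 genes (0%) were called in each of the 3 contrasts, and DESeq2 called 0 as well. Unadjusted p-values under 0.05 were found for 142 genes between p21mTert and p21Het, 148 between p21mTert and p21mTertCD, and 50 between p21mTertCD and p21Het. With no difference at all, a fraction of 0.05 of the 2866 tested genes would lie under this threshold, so these counts are not read as differences. On counts simulated for these contrasts, in that order, 0%, 1.5% and 2% of 2-fold changes were recovered, 77%, 74% and 63% of 4-fold changes, and 91%, 86% and 87% of 8-fold changes. Changes of 2-fold were thus not detectable at this depth.

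Cxcr6 averaged 274 CPM ± 34.5 (SD, n = 4) in p21mTert and 536 CPM ± 207 (SD, n = 3) in p21Het, a log2 fold change of -0.91 ± 0.31 that did not pass (edgeR adjusted p = 0.896). Vipr2, a receptor for vasoactive intestinal peptide, averaged 38.3 CPM ± 8.51 and 104 CPM ± 42.6 in the same groups (-1.41 ± 0.39, adjusted p = 0.896). Calca gave 0.32 against p21Het and 0.45 against p21mTertCD (adjusted p = 1.00 and 0.984). Areg, Il13, Arg1 and Rora gave -0.10, -0.42, -0.38 and 0.12 between p21mTert and p21Het (adjusted p = 1.00 for each). None of these genes differed between genotypes by more than the test requires.

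**Figure D4:**
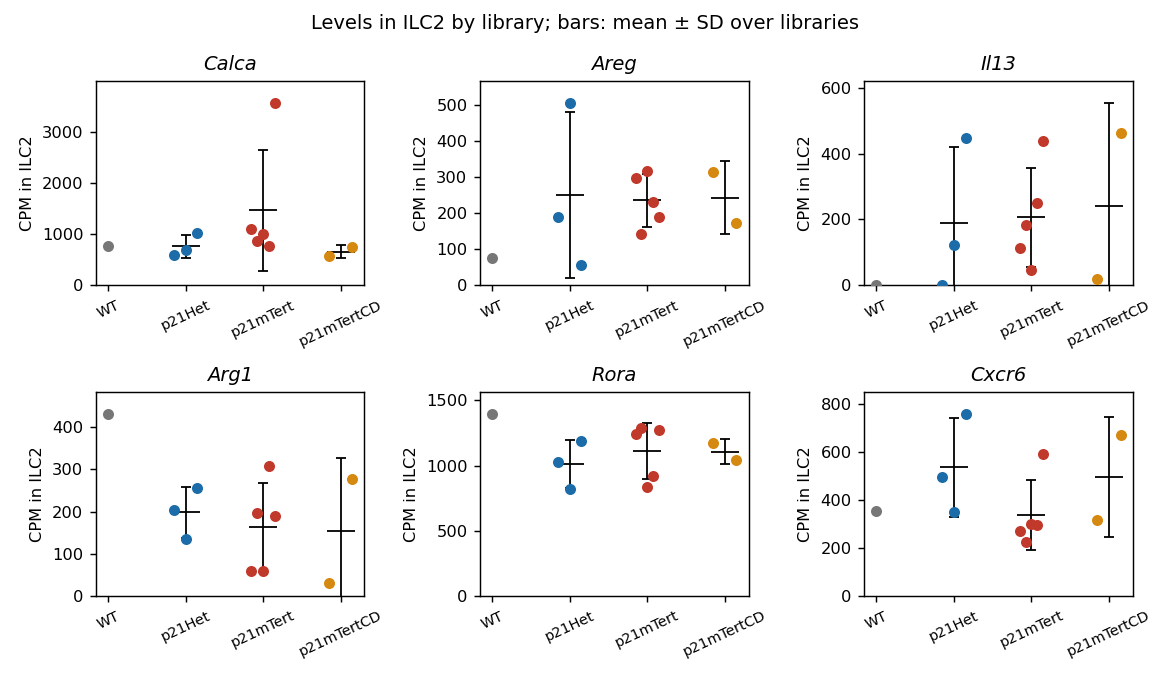
CPM in ILC2 (vertical axes, from 0) of 6 genes by genotype (horizontal axes), with 1 point per library and black bars for mean ± SD where a group has more than 1 library, cut where they would pass below 0. The 3 genotypes with replicates overlap for Areg, Il13, Arg1 and Rora, and p21mTert_5 stands above the rest for Calca at 3563 CPM. For Calca the p21mTert libraries (from 779 CPM) also lie above both p21mTertCD libraries (567 and 751 CPM).

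Of the genes named in the genotypes, Cdkn1a (p21; GRCm38 chromosome 17, 29090976 to 29100727) had 233 UMIs in 75 ILC2. It was at 25.4 CPM in WT_1, 38.1, 160.2 and 152 CPM in p21Het, 99.5, 70.6, 288, 67.3 and 133 CPM in p21mTert, and 257 and 67.7 CPM in p21mTertCD. The 3 genotypes with replicates overlapped. WT_1 lay lowest, but its 25.4 CPM is 1 UMI in 9 cells and gives no ranking. The log2 fold changes were 0.17 for p21mTert against p21Het, -0.34 for p21mTert against p21mTertCD and 0.51 for p21mTertCD against p21Het, and none passed. Cdkn1a was higher in ILC2 than in NK cells (1.53 ± 0.29, adjusted p = 0.00052) and the CD3-positive cells (1.75 ± 0.36, adjusted p = 0.0101), and lower than in basophils (-1.18 ± 0.44, adjusted p = 0.0475). The call against the CD3-positive cells was lost in 3 of 9 alternatives (DESeq2, without p21mTertCD_1, and without mixed barcodes when surfactant and haemoglobin RNA was allowed for; adjusted p up to 0.12). The call against NK cells was lost without mixed barcodes (adjusted p = 0.143). After thinning Cdkn1a was too low to be tested against any class, and without mixed barcodes it could be tested against NK cells alone. Against basophils 6 of 10 alternatives lost the call. Of the p53 targets and CDK inhibitors, 1 of 6 tested were higher and 0 lower in ILC2 against the CD3-positive cells, 1 of 10 higher and 2 lower against NK cells, and 0 of 3 higher and 2 lower against basophils. Medians of log2 fold change were -0.21, -0.17 and -1.14.

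Tert (chromosome 13, 73626911 to 73649843) had 8 UMIs in 7 ILC2. They were 1, 1, 0, 3 and 0 UMIs in the p21mTert libraries, 2 and 1 in the p21mTertCD libraries, and 0 in WT_1 and in each p21Het library. A count of 0 allows up to 3 counts, so a difference in Tert between genotypes was not detectable at this depth.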

How the data were processed

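The authors deposited raw UMI counts per gene and barcode for 11 libraries, with 31053 genes each; the submitters' processing notes name Cell Ranger and mm10, and versions are not printed because the sources differ. The filter thresholds are those of the series' design text. The barcode filter, the selection of cells and all sums were made here from these counts. The ILC2 gate and the gene lists were chosen with earlier results of these data known. Labels do not tie libraries to separate animals, so p-values measure the spread between these libraries, which may be technical.

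UMIs were summed over cells per library, with at least 10 cells of each class. They were tested in edgeR 4.0.16 (R 4.3.3), after filterByExpr and TMM scaling, by the quasi-likelihood test with Benjamini-Hochberg adjustment over all tested genes; genotype was a group term, and class contrasts had the library as block. DESeq2 1.42.0 was an alternative. The genotype fit was planned for 10 libraries, but p21mTert_5 had 8 ILC2. Shares were compared by exact permutation (scipy 1.17.1). Besides list genes, Cdkn1a and Tert, the text names the 20 genes of highest ratio and up to 5 per direction with the largest fold change among called genes with at least 20 CPM and libraries that do not overlap. The tests were checked on simulated counts. Gene positions are from GENCODE M21, and upstream sequences from RefSeq. Intervals and floors cover counting error only.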

Additional observations from a re-analysis of the deposited data

Results flagged for a closer look

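In p21mTert, the group with 5 libraries, 34 results were examined for a library far from the other 4, and 2 had one. Calca in ILC2 was at 3563 CPM in p21mTert_5 and at 779 to 1108 CPM in the others. Cxcr6 in ILC2 was at 591 CPM in p21mTert_5 and at 226 to 300.1 CPM in the others. That library held 8 ILC2, the fewest of the 11, and did not enter the genotype fit. Chance marks about 1 in 20 groups.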

How the results depend on the processing

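By exact permutation, the difference in ILC2 share between p21mTert and p21mTertCD (p = 0.0476) kept its sign and lost its unadjusted p with a CD3 sum of 0 (-0.240, p = 0.0952), without mixed barcodes (-0.0462, p = 0.333), without the barcode filter (-0.241, p = 0.0952), on the logit scale (-0.817, p = 0.0952), in the later deposit (-0.323, p = 0.0667), with permutation within deposits (-0.288, p = 0.0667) and without single libraries (-0.410 to -0.166); designs with fewer libraries cannot go below 0.05. With mixed barcodes excluded but surfactant and haemoglobin RNA allowed for, an alternative chosen after seeing the data, it was -0.250 (exact permutation p = 0.0476). The p21mTert minus p21Het difference turned to 0.0178 without mixed barcodes, which leaves 4 of 49 ILC2 in p21Het_2. Deviations of same-numbered p21Het and p21mTert libraries had correlations of -0.0998, -0.215 and -0.00337. These come from few cells in groups of few libraries, so they cannot decide whether the numbers pair libraries. With the replicate block the p21mTert minus p21mTertCD share difference was -0.267 (exact permutation p = 0.5). With that block, 0, 1 and 2 genes were called when p21mTert was set against p21Het, p21mTert against p21mTertCD, and p21mTertCD against p21Het.

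In the same order, 153, 161 and 39 genes were called by genotype without the filter on low counts. Leaving out single libraries gave 0 to 6 for p21mTert minus p21mTertCD and 0 to 5 for p21mTertCD minus p21Het, both highest without p21mTertCD_1, whose group then has 1 library assumed to vary like the others. The exclusion of all mixed barcodes could not be fitted for genotype. Against the CD3-positive cells 142 genes were called by DESeq2, 538 without the low-count filter, 84 without mixed barcodes, 74 after thinning, and 137 to 272 without single libraries (lowest without p21mTertCD_1). Without mixed barcodes and after thinning, 615 and 530 were called against NK cells and 364 and 239 against basophils. Mixed barcodes were excluded from ILC2 alone, while thinning applied to every class. Fos against the CD3-positive cells turned to -0.18 without mixed barcodes; Egr1 turned to -0.90, to -0.18 with surfactant and haemoglobin RNA allowed for, and to -0.29 after thinning. The median of all tested genes moved from 0.01 to 0.13 without the low-count filter against the CD3-positive cells, from -0.01 to -0.13 after thinning against NK cells, and against basophils from 0.04 to 0.26 without that filter, -0.15 without mixed barcodes and -0.26 after thinning. Thinning and the exclusions leave fewer UMIs; other causes were not tested. The 8 to 49 ILC2 per library limit every genotype result.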
